A study of Mus musculus with 14 samples.

Results

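The proteasome subunit genes were taken as every gene whose symbol in the probe annotation of the array begins with Psma, Psmb, Psmc, Psmd, Psme or Psmg and a digit, with the brightest probe on average over all 14 arrays standing for a gene that had several. The rule took 45 of 19621 probes and 44 of 13923 genes named by a single symbol. Of these, 42 encode proteasome subunits, activators or assembly chaperones, while Psmc3ip and Psme3ip1 only share the start of the symbol. RefSeq holds 50 protein-coding mouse genes whose symbol fits the rule, and the 6 with no probe under that symbol (Psmb11, Psmc2, Psmd7, Psme2b, Psme4 and Psmg4) were not analysed here. Probe intensities of RNA from right lung tissue were measured in jnk1-/- mice ventilated at 10 ml/kg for 8 hours (n = 4), jnk1-/- controls (n = 3), wild-type mice ventilated in the same way (n = 4) and wild-type controls (n = 3). All were adult mice of the C57/BL6 background, matched for age and sex. The mutants lack jnk1 (Mapk8) constitutively, in every cell type. All mice, controls included, were anaesthetized with ketamine and acepromazine, the controls being killed at once without ventilation. Ventilated mice also had hourly pancuronium, a muscle relaxant, hourly inflations to recruit the lungs and 8 hours of anaesthesia. These cannot be told apart from ventilation itself. The question of the design was which lung transcripts change with ventilation and whether they depend on JNK1, a stress-activated kinase. Levels are normalized log2 intensities, and a gene was called changed at an adjusted p under 0.05 from limma with Benjamini-Hochberg adjustment over all 19621 probes.

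Several facts of the arrays bear on the values below. The Mapk8 probe lay between -0.41 and 3.83 in the jnk1-/- lungs and between 1.99 and 4.46 in the wild-type lungs, at the authors' detection floor on 9 of 14 arrays, so that it does not check the genotype labels. The share of probes at the lowest deposited value was 10.7% on wild-type control 2 and 6.98% on wild-type control 3, against 1.86% to 4.52% on the other 12 arrays. Summed intensity of 12 skeletal muscle genes was 282 to 333 in jnk1-/- ventilated lungs and 8914 to 12525 in jnk1-/- controls, against 353 to 576 in wild-type ventilated lungs and 422 to 550 in wild-type controls. Summed intensity of 11 squamous epithelium genes was likewise 738 to 963 in jnk1-/- ventilated lungs and 4155 to 8190 in jnk1-/- controls, against 555 to 870 in wild-type ventilated lungs and 535 to 709 in wild-type controls. Lung epithelium genes, with 6 probes, summed to 30896 to 44087 in jnk1-/- ventilated lungs and 29781 to 40300 in jnk1-/- controls, against 24634 to 31117 in wild-type ventilated lungs and 21933 to 26531 in wild-type controls, so that every array held the labelled tissue. The high muscle and squamous values were thus in the jnk1-/- controls, and their part in the contrasts that use those controls was not tested.

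The proteasome is the barrel-shaped protease that degrades proteins tagged with ubiquitin. Its 20S core holds outer rings of alpha subunits and inner rings of beta subunits, of which Psmb5, Psmb6 and Psmb7 carry the active sites, and a 19S cap of ATPases and ubiquitin receptors feeds substrates into it. In leukocytes, and in other cells after interferon-gamma, Psmb8, Psmb9 and Psmb10 take the places of these active subunits to form the immunoproteasome, which shapes the peptides shown by MHC class I, and the PA28 activator made of Psme1 and Psme2 can replace the cap. When proteasome activity falls, the transcription factor NRF1 (Nfe2l1) raises the genes of the core and cap together, and NRF2 (Nfe2l2) does so under oxidative stress.

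The 100 bases before the annotated start of the genes on which the results turn are printed, for the inducible subunits (Psmb9, Psmb8 and Psmb10), a constitutive subunit (Psmb5) and 2 cap subunits (Psmd12 and Psmd13), as RefSeq gives them in build GRCm38.p6. Capitals mark a match, on either strand, to the antioxidant response element core read by NRF1 and NRF2 (TGACNNNGC or TGAGNNNGC), to CCAAT, the box bound by NF-Y, or to the interferon response element (GAAANNGAA).
Psmb9 (chr17:34187331-34187430, minus strand): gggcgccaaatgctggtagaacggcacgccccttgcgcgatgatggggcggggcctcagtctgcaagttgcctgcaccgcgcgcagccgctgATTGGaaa
Psmb8 (chr17:34198095-34198194, plus strand): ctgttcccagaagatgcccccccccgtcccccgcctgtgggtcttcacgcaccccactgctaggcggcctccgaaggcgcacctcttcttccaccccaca
Psmb10 (chr8:105938393-105938492, minus strand): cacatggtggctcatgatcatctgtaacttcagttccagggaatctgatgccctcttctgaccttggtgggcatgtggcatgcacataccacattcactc
Psmb5 (chr14:54617996-54618095, minus strand): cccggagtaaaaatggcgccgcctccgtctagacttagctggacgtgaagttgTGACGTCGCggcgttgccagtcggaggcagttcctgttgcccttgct
Psmd12 (chr11:107479428-107479527, plus strand): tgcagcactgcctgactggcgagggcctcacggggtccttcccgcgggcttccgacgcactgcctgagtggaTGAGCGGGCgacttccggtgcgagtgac
Psmd13 (chr7:140882294-140882393, plus strand): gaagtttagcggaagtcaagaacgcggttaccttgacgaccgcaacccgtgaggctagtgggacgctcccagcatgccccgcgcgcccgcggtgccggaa
Over the 250 bases before the start, the antioxidant core was found in 10 of 35 proteasome genes with a promoter in the table (28.6%) and in 22.8% of 27025 genes. Its carriers were Psma4, Psma6, Psmb3, Psmb5, Psmb6, Psmc6, Psmd1, Psmd12, Psmd5 and Psmd9. CCAAT was found in 12 of 35 (34.3%) and in 34.5% of all genes, and the interferon element in 3 of 35 (8.57%), Psmb3, Psmd4 and Psmd9, and in 7.16% of all genes. Psmb8, Psmb10 and Psmd13 held no match to any of these letters in 250 bases and Psmb9 held CCAAT alone. Psmb9 and Psmb8 both lie in the MHC region of chromosome 17, and Psme1 and Psme2 both lie on chromosome 14.

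All 3 inducible catalytic subunits fell with ventilation in jnk1-/- lungs, and Psmb9 fell in wild-type lungs too. Called changes made up 4.78% of all probes in the lower direction in jnk1-/- lungs and 1.41% in wild-type lungs, so that 3 of 3 and 1 of 3 stand against those shares. Psmb9, the inducible subunit that takes the place of Psmb6, had 6.25, 7.01, 7.31 and 6.53 in jnk1-/- ventilated lungs and 9.43, 8.78 and 8.87 in jnk1-/- controls. It had 7.19, 7.70, 7.53 and 7.82 in wild-type ventilated lungs and 9.11, 9.03 and 8.60 in wild-type controls. Every ventilated lung lay below every control of its genotype. The log2 fold changes of all 3 inducible subunits and both PA28 subunits were below 0 in each genotype under all 5 normalizations compared. The log2 fold change was -2.25 ± 0.28 (SE), a 4.76-fold lower level, in jnk1-/- lungs (limma, adjusted p = 0.000716) and -1.35 ± 0.28, a 2.56-fold lower level, in wild-type lungs (adjusted p = 0.0227). The jnk1-/- call held without any one array, while the wild-type call was lost without wild-type ventilated 1, wild-type ventilated 3, wild-type control 1 or wild-type control 2, at log2 fold changes of -1.23, -1.34, -1.26 and -1.29 and limma adjusted p of 0.0653, 0.0598, 0.0523 and 0.0890.

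Psmb8, which takes the place of Psmb5, had 9.11, 9.77, 9.33 and 9.14 in jnk1-/- ventilated lungs and 10.85, 10.62 and 10.03 in jnk1-/- controls. Wild-type ventilated lungs had 9.56, 9.58, 9.63 and 9.74 and wild-type controls 10.37, 10.03 and 9.92. Ventilated and control lungs again did not overlap in either genotype. The log2 fold change was -1.16 ± 0.23, a 2.24-fold lower level, in jnk1-/- lungs (limma, adjusted p = 0.00765), whereas that of -0.48 ± 0.23 in wild-type lungs did not pass the test (adjusted p = 0.262). Psmb10, which takes the place of Psmb7, had 8.57, 9.06, 9.36 and 9.01 in jnk1-/- ventilated lungs and 10.21, 10.24 and 9.99 in jnk1-/- controls. Wild-type ventilated lungs had 9.55, 9.63, 9.63 and 9.86 and wild-type controls 10.25, 10.69 and 10.24, again with no overlap. Its log2 fold change was -1.15 ± 0.20, a 2.21-fold lower level, in jnk1-/- lungs (limma, adjusted p = 0.00472), and -0.72 ± 0.20 in wild-type lungs, which did not pass the test (adjusted p = 0.0712).

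**Figure D1:**
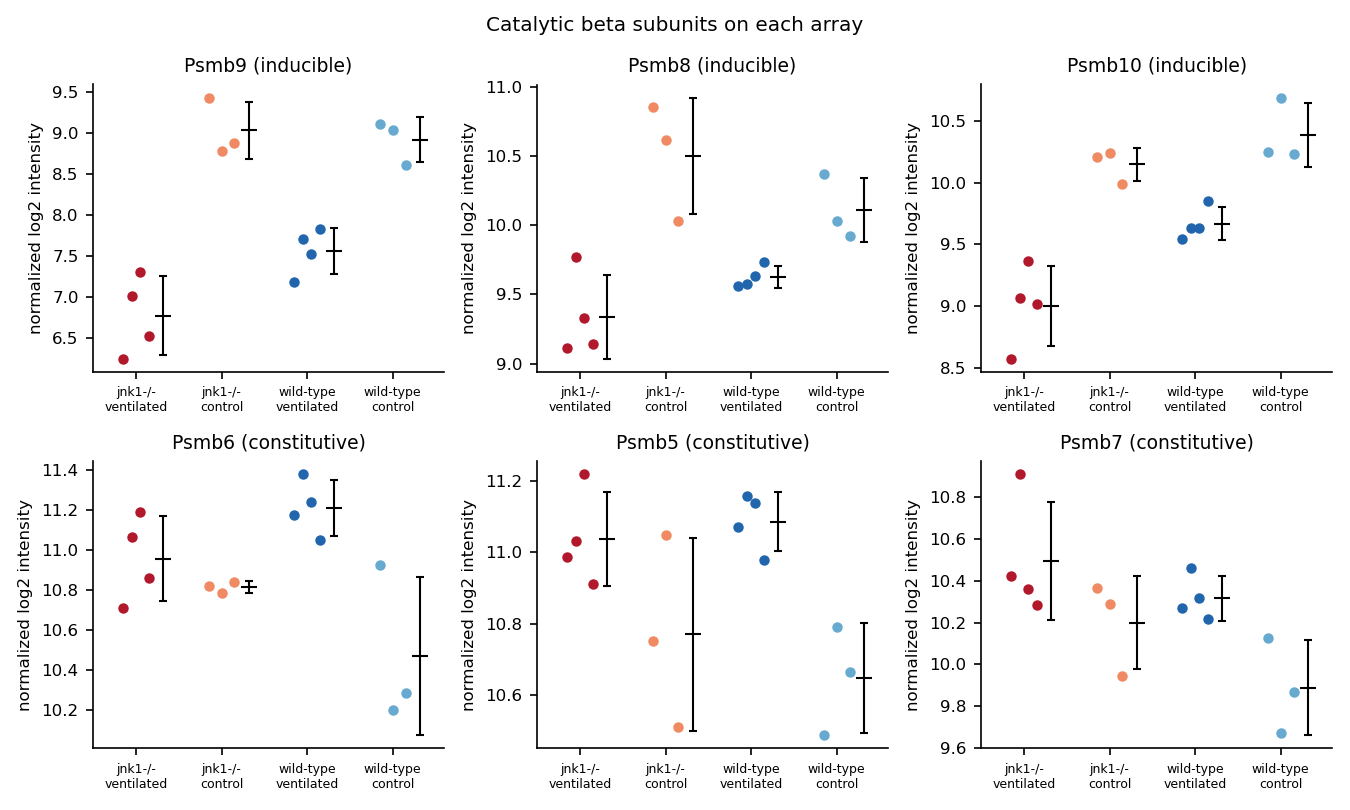
Normalized log2 intensity of the 3 inducible subunits (upper row) and of the constitutive subunits they replace (lower row), one point per array in the 4 groups, with the group mean and SD beside the points (n = 4 ventilated, n = 3 control). In each upper panel the ventilated lungs lie below the controls of the same genotype, Psmb9 at 6.25 to 7.31 in jnk1-/- ventilated lungs and 8.78 to 9.43 in jnk1-/- controls.

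None of the 3 constitutive catalytic subunits passed the test in either genotype. Psmb5, the chymotrypsin-like subunit, had 10.99, 11.03, 11.22 and 10.91 in jnk1-/- ventilated lungs and 10.75, 11.05 and 10.51 in jnk1-/- controls. Its values were 11.07, 11.16, 11.14 and 10.98 in wild-type ventilated lungs and 10.49, 10.79 and 10.66 in wild-type controls. Psmb6, the caspase-like subunit, had 10.71, 11.06, 11.19 and 10.86 in jnk1-/- ventilated lungs and 10.82, 10.78 and 10.84 in jnk1-/- controls, and 11.17, 11.38, 11.24 and 11.05 in wild-type ventilated lungs and 10.92, 10.20 and 10.29 in wild-type controls. The wild-type groups were apart for both genes, with ventilated lungs above, while the jnk1-/- groups overlapped. Psmb7, the trypsin-like subunit, had 10.42, 10.91, 10.36 and 10.29 in jnk1-/- ventilated lungs and 10.37, 10.29 and 9.95 in jnk1-/- controls. In wild-type lungs it had 10.27, 10.46, 10.32 and 10.22 with ventilation and 10.13, 9.67 and 9.87 in controls, with the same pattern of overlap. Log2 fold changes were 0.27, 0.14 and 0.30 for Psmb5, Psmb6 and Psmb7 in jnk1-/- lungs (limma, adjusted p = 0.341, 0.722 and 0.377) and 0.44, 0.74 and 0.43 in wild-type lungs (adjusted p = 0.162, 0.0621 and 0.242).

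The difference between an inducible subunit and its counterpart was taken within each array, where scaling has least effect. The level of one probe cannot be set against that of another, so only its change between groups is read. Psmb9 minus Psmb6 was 2.39 log2 units lower in jnk1-/- ventilated lungs than in jnk1-/- controls (a change of -2.39) and the change was -2.10 in wild-type lungs. The changes were -1.43 in jnk1-/- and -0.92 in wild-type lungs for Psmb8 minus Psmb5, and -1.44 in jnk1-/- and -1.15 in wild-type lungs for Psmb10 minus Psmb7. In all 3 pairs and both genotypes every ventilated array was below every control. The deposited values before normalization gave -2.41 and -2.04 for the first pair, -1.43 and -0.90 for the second and -1.46 and -1.15 for the last, in jnk1-/- and wild-type lungs in that order, again with no overlap.

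**Figure D2:**
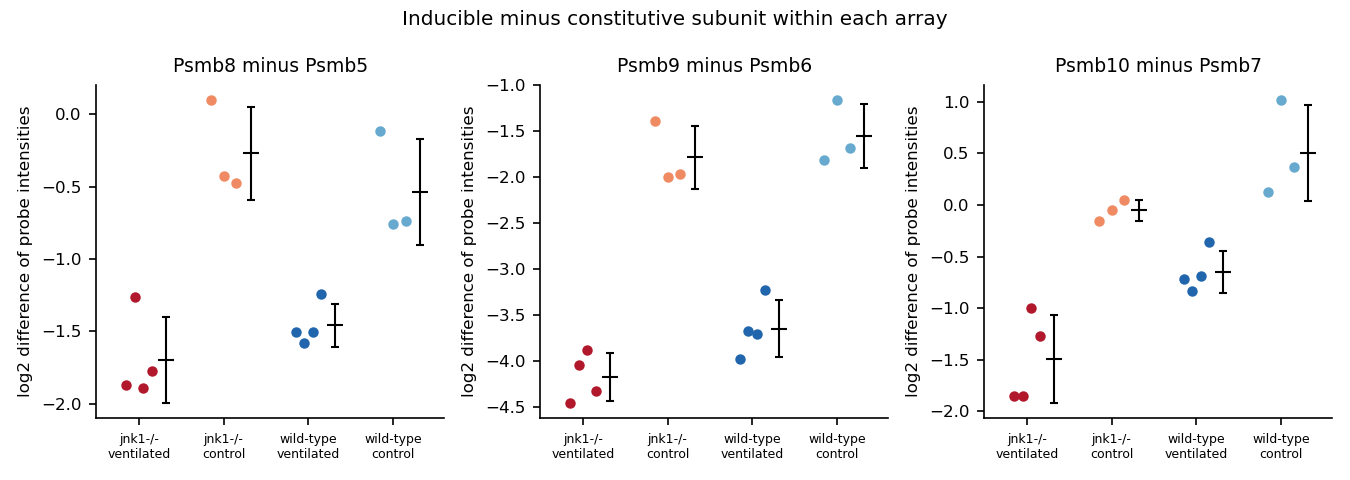
Log2 difference of probe intensities, inducible minus constitutive subunit, within each of the 14 arrays, with group mean and SD beside the points. In all 3 panels both ventilated groups lie below the controls of their genotype, with changes of -2.39 in jnk1-/- and -2.10 in wild-type lungs for Psmb9 minus Psmb6.

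None of the 3 activators passed the test. Psme1, the alpha subunit of the interferon-inducible PA28, had 11.12, 11.43, 11.47 and 11.20 in jnk1-/- ventilated lungs and 12.01, 11.86 and 11.51 in jnk1-/- controls. Values were 11.34, 11.17, 11.24 and 11.19 in wild-type ventilated lungs and 11.46, 11.33 and 11.34 in wild-type controls. The jnk1-/- groups were apart, and those of wild type overlapped. Its log2 fold change was -0.49 ± 0.16 in jnk1-/- lungs (limma, adjusted p = 0.0711) and -0.14 ± 0.16 in wild-type lungs (adjusted p = 0.677). Psme2, the beta subunit of PA28, had 9.36, 9.78, 9.69 and 9.42 in jnk1-/- ventilated lungs and 9.92, 9.73 and 9.94 in jnk1-/- controls. It was at 9.23, 9.89, 9.36 and 9.51 in wild-type ventilated lungs and 9.98, 9.80 and 9.68 in wild-type controls. The groups overlapped, with log2 fold changes of -0.30 in jnk1-/- lungs (limma, adjusted p = 0.345) and -0.32 in wild-type lungs (adjusted p = 0.374). Psme3, the nuclear activator PA28 gamma, which interferon does not induce, had 8.36, 8.54, 9.12 and 8.44 in jnk1-/- ventilated lungs and 8.28, 8.21 and 7.28 in jnk1-/- controls. The probe gave 8.51, 8.94, 8.50 and 8.76 in wild-type ventilated lungs and 8.48, 8.08 and 7.90 in wild-type controls. Ventilated lungs were above the controls in both genotypes, by log2 fold changes of 0.70 ± 0.28 (limma, adjusted p = 0.132) in jnk1-/- and 0.52 ± 0.28 (adjusted p = 0.325) in wild-type lungs.

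Summed T, NK and B cell markers were lower with ventilation, as these subunits were. In RNA of lung tissue, fewer cells of a type and less RNA per cell cannot be told apart. Summed intensity of 10 T and NK cell genes was 418 to 816 in jnk1-/- ventilated lungs and 1331 to 1783 in jnk1-/- controls, and 420 to 885 in wild-type ventilated lungs and 934 to 1187 in wild-type controls. That of 8 B cell genes was 556 to 877 in jnk1-/- ventilated lungs and 2001 to 4825 in jnk1-/- controls, and 679 to 780 in wild-type ventilated lungs and 1068 to 2244 in wild-type controls. Both sums were thus lower in every ventilated lung than in any control of its genotype. Ighm was the brightest B cell gene on each jnk1-/- control, at 11.61, 11.80 and 9.77. Some members did not fall. Pax5, at the authors' floor on 6 arrays, had group means of 2.87 ventilated and 1.82 control in jnk1-/- lungs. In wild-type lungs Pax5 had 4.14 and 1.84 and Cd79a 7.52 and 7.47. Group means of Cd3e in jnk1-/- and Cd8a in wild-type lungs were also higher with ventilation. Of the T and NK cell genes 4 of 10 fell in jnk1-/- lungs and 0 in wild-type lungs by the limma test, and of the B cell genes 4 of 8 fell in jnk1-/- and 2 in wild-type lungs. These counts of called genes and those further on stand against all probes, of which 4.78% were called lower and 7.11% higher in jnk1-/- lungs. In wild-type lungs 1.41% were called lower and 2.13% higher. Summed intensity of 9 neutrophil genes moved the other way, at 7812 to 23864 in jnk1-/- ventilated lungs and 1807 to 2105 in jnk1-/- controls. It was 12312 to 23149 in wild-type ventilated lungs and 2872 to 4370 in wild-type controls. S100a8 made the largest part of the sum in ventilated lungs. By the limma test 3 of 9 rose in each genotype. Not all members rose. In jnk1-/- lungs every ventilated array was below every control for Ltf (group means 6.58 and 8.64) and Mpo (0.28 and 2.31), and above for 4 of the 9. Of all probes 10.5% lay wholly below in this way and 12.4% wholly above. No gene of these lists was at the authors' floor on all arrays, but several were there on most. Among them, Cd3e, Mpo and the macrophage gene Adgre1 were at the floor on 13 arrays, Elane on 11 and Cd8a on 8. Such genes stay in the counts, although their values lie close to background. Of the remaining lists, 0 of 6 macrophage genes passed in either genotype, 1 of 6 lung epithelium genes (Sftpb) fell in jnk1-/- lungs and 1 of 7 endothelium genes (Kdr) fell in wild-type lungs. Of the muscle genes 11 of 12 and of the squamous genes 7 of 11 fell in jnk1-/- lungs, against 0 that fell in wild-type lungs, where 1 squamous gene (Sprr1a) rose. The part of these cell types in the subunit values was not tested.

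The genes that load peptides on MHC class I, the step after the immunoproteasome, passed the test once among 12 measured in jnk1-/- lungs and 0 times in wild-type lungs. Of all probes 7.11% were called higher and 4.78% lower in jnk1-/- lungs, and 2.13% and 1.41% in wild-type lungs. In jnk1-/- lungs 7 of the 12 did not pass but had every ventilated array below every control, where 10.5% of all probes did so. They were the peptide transporter genes Tap1 (log2 fold change -1.67) and Tap2 (-0.65), Tapbp (-0.96) and Tapbpl (-0.62), which help to load peptides, the light chain B2m (-0.49), the class I heavy chain H2-T23 (-0.61) and the peptide-trimming enzyme Erap1 (-0.61), chosen after their values were seen, with limma adjusted p of 0.0648 (Tapbpl) to 0.441 (Tapbp). Tapbp was at the authors' floor on 10 of 14 arrays and Tap1 on 3. In wild-type lungs 1 of the 12, H2-T23, was below in this way, where 10.2% of all probes were so. Its log2 fold change was -0.29 (limma, adjusted p = 0.464). H2-Q10, a secreted class I heavy chain of the mouse with close paralogs that a probe may share, had 9.09, 8.50, 8.20 and 8.81 in jnk1-/- ventilated lungs and 7.24, 7.17 and 6.64 in jnk1-/- controls, a log2 fold change of 1.64 ± 0.33 (limma, adjusted p = 0.00956). Wild-type ventilated lungs had 7.81, 7.72, 8.33 and 7.89 and wild-type controls 6.46, 7.77 and 6.51, with overlap, and the change of 1.02 ± 0.33 did not pass (adjusted p = 0.112). The median log2 fold change of the 12 genes was -0.55 in jnk1-/- and -0.08 in wild-type lungs, against -0.04 and 0.09 over all probes.

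The constitutive 20S core showed no gene past the test in either genotype, with adjusted p of 0.260 or more in jnk1-/- and 0.0578 or more in wild-type lungs. These 15 genes comprise the alpha subunits Psma1 to Psma7, which form the gated outer rings, Psma8, which replaces Psma7 in testis, the beta subunits without active sites Psmb1 to Psmb4, and Psmb5 to Psmb7. In jnk1-/- lungs their log2 fold changes ran from -0.50 (Psmb4) to 0.45 (Psma5), 10 of 15 above 0, with a median of 0.14. In wild-type lungs they ran from 0.11 (Psmb2) to 0.74 (Psmb6), all 15 above 0, with a median of 0.43. Of all probes 47.5% were above 0 in jnk1-/- and 56.7% in wild-type lungs. Psma8, counted among the 15, was dim, at a mean of 4.36 over all arrays. With each array only centred on its median, 9 of 15 were above 0 in wild-type lungs and the median was 0.06, so that the wild-type count depends on the normalization. The smallest adjusted p belonged to Psma6, with 10.73, 10.90, 10.87 and 10.72 in jnk1-/- ventilated lungs and 10.67, 10.57 and 10.67 in jnk1-/- controls. It had 10.66, 10.70, 11.38 and 10.79 in wild-type ventilated lungs and 10.34, 9.89 and 10.20 in wild-type controls. Ventilated lungs lay above the controls in both genotypes, with a log2 fold change of 0.17 ± 0.19 in jnk1-/- lungs (limma, adjusted p = 0.655) and 0.74 ± 0.19 in wild-type lungs (adjusted p = 0.0578).

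Among the 19S cap subunits 3 rose in jnk1-/- lungs, Psmd1, Psmd12 and Psmd13, and 2 rose in wild-type lungs, Psmd12 and Psmd6. All belong to the subunits without ATPase activity, of which 10 were measured, and they stand against 7.11% of all probes called higher in jnk1-/- and 2.13% in wild-type lungs. Psmd13, a subunit of the lid, had 8.02, 7.79, 7.84 and 7.30 in jnk1-/- ventilated lungs and 6.84, 6.98 and 6.43 in jnk1-/- controls. In wild-type lungs the values were 7.27, 7.41, 7.0 and 7.33 with ventilation and 7.06, 6.50 and 6.66 in controls. Only the jnk1-/- groups were apart. The log2 fold change was 0.99 ± 0.22, a 1.99-fold higher level, in jnk1-/- lungs (limma, adjusted p = 0.0146), which held without any one array, and 0.51 ± 0.22 in wild-type lungs (adjusted p = 0.225).

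Psmd12, also of the lid, had 10.99, 11.13, 11.45 and 11.05 in jnk1-/- ventilated lungs and 10.74, 10.28 and 9.72 in jnk1-/- controls, and 10.98, 11.21, 10.96 and 11.19 in wild-type ventilated lungs and 9.64, 10.25 and 10.28 in wild-type controls. Ventilated lungs lay above the controls in both genotypes. The log2 fold change was 0.91 ± 0.25, a 1.88-fold higher level, in jnk1-/- lungs (limma, adjusted p = 0.0349) and 1.03 ± 0.25, a 2.04-fold higher level, in wild-type lungs (adjusted p = 0.0430). A second, dimmer Psmd12 probe disagreed in jnk1-/- lungs, at a log2 fold change of 0.11 (limma, adjusted p = 0.812), and gave 0.60 in wild-type lungs (adjusted p = 0.143). The jnk1-/- call was lost without any one of the 4 jnk1-/- ventilated arrays or jnk1-/- control 2 or 3, at log2 fold changes of 0.65 to 0.96 and adjusted p of 0.0516 to 0.106. The wild-type call was lost without any one of the 7 wild-type arrays, jnk1-/- ventilated 2 or 4 or jnk1-/- control 2, at 0.82 to 1.14 and adjusted p of 0.0577 to 0.0965.

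Psmd1, the large scaffold of the base that docks ubiquitin receptors, had 11.92, 12.51, 12.16 and 12.28 in jnk1-/- ventilated lungs and 11.70, 11.80 and 11.43 in jnk1-/- controls, and 12.27, 12.23, 12.15 and 12.17 in wild-type ventilated lungs and 11.58, 11.71 and 11.68 in wild-type controls. Psmd6, a lid subunit, had 10.35, 10.58, 10.58 and 10.44 in jnk1-/- ventilated lungs and 10.13, 10.08 and 9.74 in jnk1-/- controls, and 10.35, 10.47, 10.46 and 10.35 in wild-type ventilated lungs and 10.06, 9.30 and 9.60 in wild-type controls. For both genes each ventilated lung was above each control of its genotype. The log2 fold change of Psmd1 was 0.57 ± 0.17 in jnk1-/- lungs (limma, adjusted p = 0.0438) and 0.55 ± 0.17 in wild-type lungs (adjusted p = 0.0907), and that of Psmd6 was 0.50 ± 0.19 in jnk1-/- lungs (adjusted p = 0.107) and 0.76 ± 0.19 in wild-type lungs (adjusted p = 0.0482). The Psmd1 call was lost without any one array except jnk1-/- ventilated 1, at log2 fold changes of 0.47 to 0.65 and adjusted p of 0.0521 to 0.115, and the Psmd6 call without any one array except jnk1-/- control 3 and wild-type control 1, at 0.58 to 0.78 and adjusted p of 0.0541 to 0.174.

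**Figure D3:**
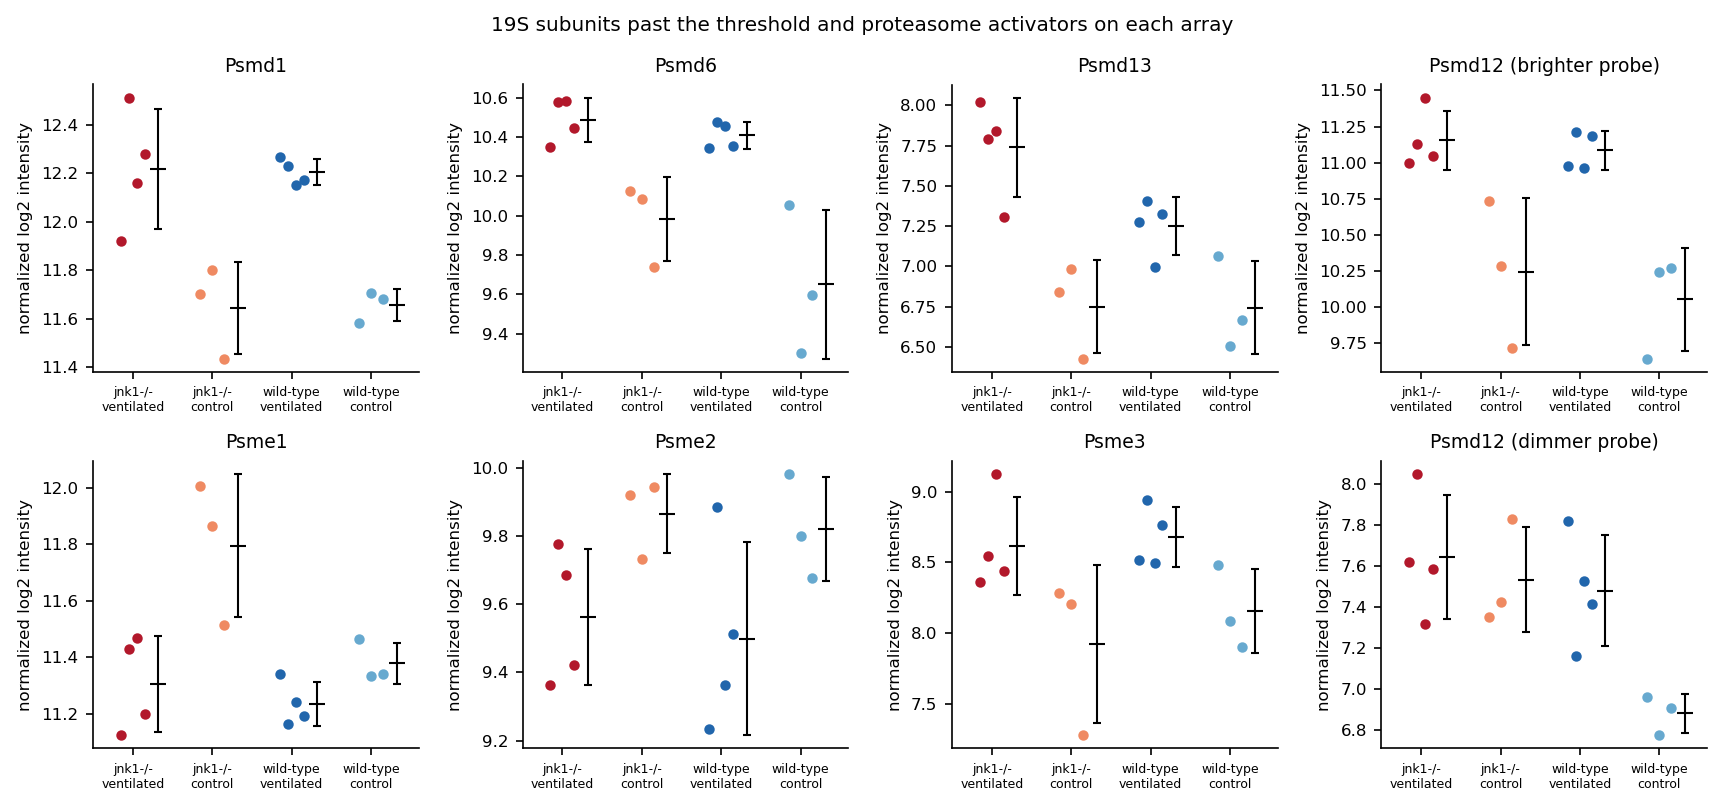
Normalized log2 intensity of the 4 called 19S subunits and the 3 activators, one point per array in the 4 groups, with the group mean and SD beside the points. The last panels of the rows set the brighter Psmd12 probe beside the dimmer one, which gave log2 fold changes of 0.91 and 0.11 in jnk1-/- lungs.

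The other cap subunits did not pass the test in either genotype. The 5 ATPases measured (Psmc1 and Psmc3 to Psmc6), which unfold substrates, had log2 fold changes of 0.06 to 0.46 in jnk1-/- and -0.07 to 0.29 in wild-type lungs. Leaving out Psmd11, a lid subunit whose probe was at the authors' floor on all 14 arrays, the 14 cap subunits had a median log2 fold change of 0.36 in jnk1-/- lungs, with 13 of 14 above 0, and of 0.51 in wild-type lungs, again with 13 of 14 above 0. Of all probes 47.5% were above 0 in jnk1-/- and 56.7% in wild-type lungs. Centred on array medians alone, 13 of 14 cap subunits were above 0 in jnk1-/- and 8 of 14 in wild-type lungs. Psmd8, a lid subunit, was the member below 0 in jnk1-/- lungs, at -0.04, and Psmc3 the one in wild-type lungs, at -0.07. Among chaperones, which assemble the complex and leave it, Psmd5, Psmd9 and Psmd10 for the base ATPases and Psmg1, Psmg2 and Psmg3 for the alpha ring, 0 of 6 passed, with log2 fold changes of -0.65 (Psmd9) to 0.36 (Psmg3) in jnk1-/- and -0.29 (Psmd9) to 0.08 (Psmg3) in wild-type lungs. Psmc3ip, which works in meiotic recombination, had -0.63 and -0.18 and was not called, and Psme3ip1 was at the authors' floor on 11 of 14 arrays.

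**Figure D4:**
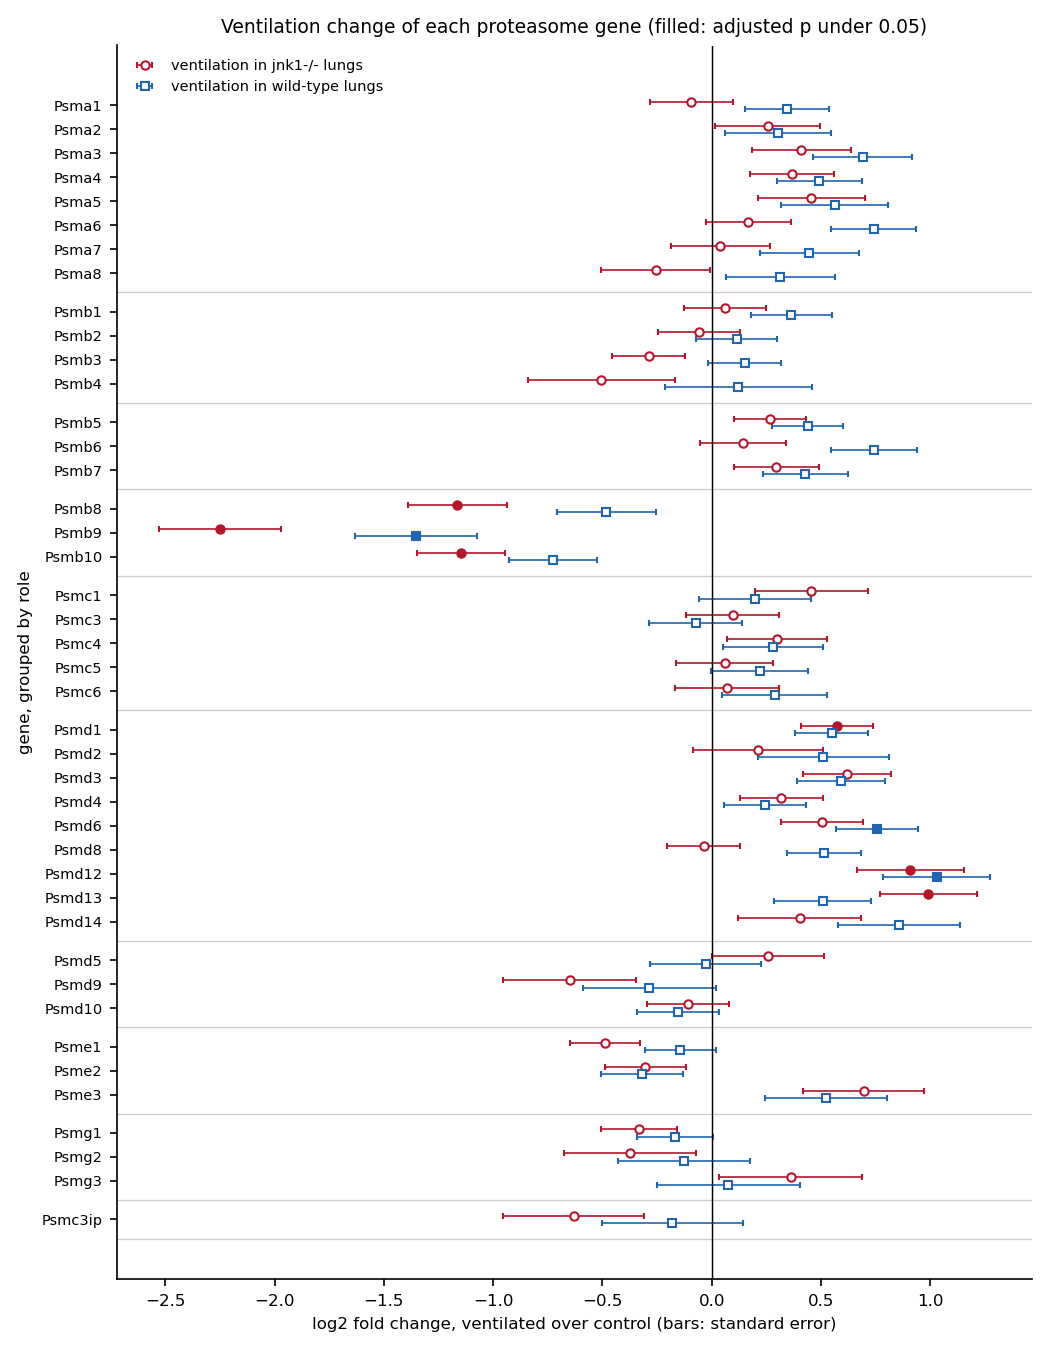
Log2 fold change of ventilated over control lungs for 42 of the 44 genes, leaving out Psmd11 and Psme3ip1, in jnk1-/- (circles) and wild-type (squares) lungs, with standard errors as bars, grouped by role, and filled where the adjusted p was under 0.05. In each genotype Psmb8, Psmb9 and Psmb10 lie farthest to the left, while 23 of 29 constitutive core and cap genes in jnk1-/- and 28 of 29 in wild-type lungs lie right of 0 (17 of 29 in wild-type lungs with arrays centred on their medians). Of all probes 47.5% were above 0 in jnk1-/- and 56.7% in wild-type lungs.

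Over all 44 genes, 3 rose (6.82%) and 3 fell (6.82%) in jnk1-/- lungs, against 7.11% and 4.78% of all probes. In wild-type lungs 2 rose (4.55%) and 1 fell (2.27%), against 2.13% and 1.41% of all probes. The share that rose in jnk1-/- lungs was thus at the level of all probes, and the others rest on 1 to 3 genes. The median log2 fold change was 0.08 in jnk1-/- lungs, against -0.04 over all probes, and 0.30 in wild-type lungs, against 0.09 over all probes. With each array centred on its median only, the wild-type median was -0.04. Ventilated arrays lay wholly above the controls for 11 genes and wholly below for 5 in jnk1-/- lungs, where 12.4% and 10.5% of all probes did so, and for 12 and 3 genes in wild-type lungs, where 11.8% and 10.2% of all probes did so. The sign of the change was the same in both genotypes for 34 of the 42 genes left after Psmd11 and Psme3ip1, 24 above 0 and 10 below, against 61.0% of all probes.

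**Figure D5:**
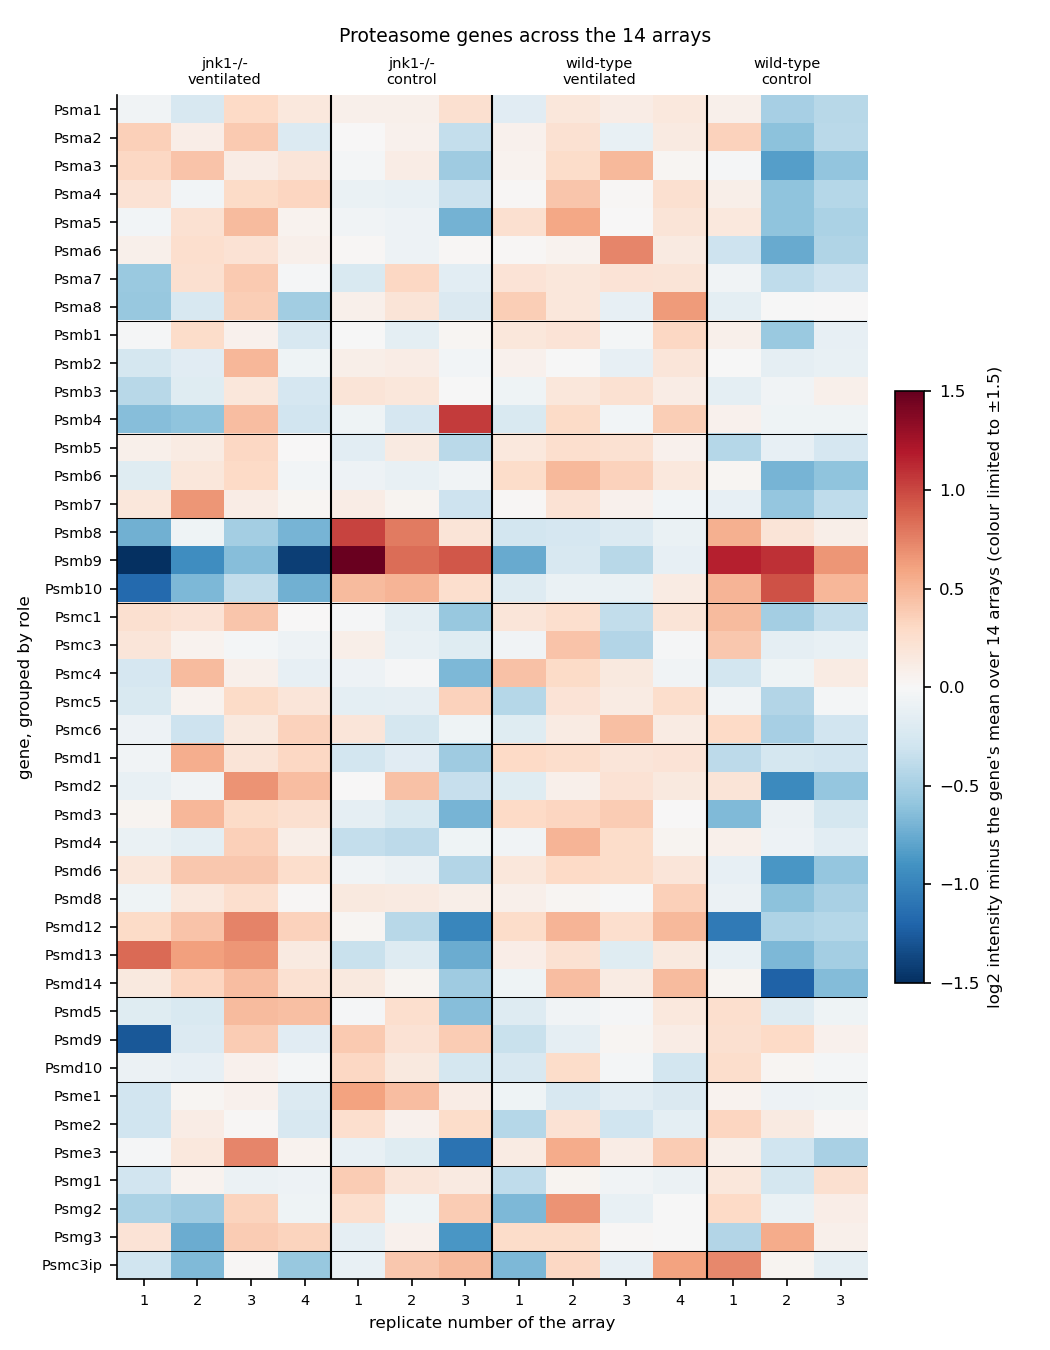
Log2 intensity of 42 of the 44 genes, leaving out Psmd11 and Psme3ip1 (rows, grouped by role), on the 14 arrays (columns, by group and replicate number), each row centred on its mean over all arrays, with the colour scale limited to ±1.5. Psmb8, Psmb9 and Psmb10 are lower in the ventilated than in the control arrays of each genotype, and Psmb4 stands out on jnk1-/- control 3 at 11.91.

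No proteasome gene was called between the genotypes. In ventilated lungs, 0 of 44 were higher or lower in jnk1-/- than in wild-type mice by limma, where 0.250% and 0.234% of all probes were called. At an unadjusted limma p under 0.05, 1 was higher and 3 were lower, where 10.1% of all probes passed in either direction. Psmb10 came nearest, all jnk1-/- ventilated lungs lying below all wild-type ventilated lungs, at a log2 fold change of -0.66 with a 95% confidence interval of -1.07 to -0.26 (limma, adjusted p = 0.208). Psmb9 differed by -0.78 (-1.35 to -0.22, adjusted p = 0.293) and Psmb8 by -0.29 (-0.75 to 0.17, adjusted p = 0.711). In control lungs, 0 of 44 were higher or lower in jnk1-/- mice, where 2.02% and 1.74% of all probes were called. At an unadjusted limma p under 0.05, 3 were higher and 0 lower, where 20.8% of all probes passed in either direction. Those 3 were Psmd8, Psme1 and Psma6, at log2 fold changes of 0.52, 0.42 and 0.49 with every jnk1-/- control above every wild-type control (limma, adjusted p = 0.131, 0.197 and 0.201). With arrays centred on their medians alone, the median over the 44 genes was -0.33 between the controls, against 0.14 here. Psmb9 differed between the controls by 0.11, with an interval of -0.54 to 0.76.

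The ventilation effect itself was compared between the genotypes, and 0 of 44 genes passed by limma, where 0.183% of probes were called in each direction. At an unadjusted limma p under 0.05, 0 were higher and 2 lower, where 13.2% of all probes passed in either direction. Those 2 were Psmd8, for which the jnk1-/- effect was 0.55 log2 units below that of wild type (difference -0.55, limma adjusted p = 0.349), and Psmb9 (difference -0.90, 95% confidence interval -1.76 to -0.04, adjusted p = 0.356). Psmb8 and Psmb10 differed by -0.68 (-1.38 to 0.02) and -0.42 (-1.04 to 0.20). The larger falls of the inducible subunits in jnk1-/- lungs are therefore not shown to differ from those in wild-type lungs, nor to be alike. The jnk1-/- controls, with their high muscle and squamous values, enter this comparison, where 8 of 12 muscle and 4 of 11 squamous genes were called lower.

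Of the factors known to act on proteasome genes, 2 of 5 measured rose in jnk1-/- lungs and 0 in wild-type lungs, against 7.11% and 2.13% of all probes. Nfe2l2, the oxidative stress factor NRF2, had 11.76, 11.46, 10.80 and 11.63 in jnk1-/- ventilated lungs and 10.35, 10.73 and 9.48 in jnk1-/- controls, a log2 fold change of 1.23 ± 0.34 (limma, adjusted p = 0.0361). In wild-type ventilated lungs it had 10.70, 10.54, 10.91 and 10.46 and in wild-type controls 10.38, 9.38 and 9.99, a change of 0.73 ± 0.34 that did not pass (adjusted p = 0.247), although the groups did not overlap in either genotype. Stat3, a factor downstream of cytokine receptors, rose by 1.07 ± 0.30 in jnk1-/- lungs (limma, adjusted p = 0.0412), while its change of 0.64 ± 0.30 in wild-type lungs did not pass (adjusted p = 0.262). Nfe2l1, NRF1 itself, changed by 0.40 ± 0.38 in jnk1-/- lungs (limma, adjusted p = 0.582) and 0.61 ± 0.38 in wild-type lungs (adjusted p = 0.418), with overlapping groups. Its probe was dim, at a mean of 4.62 over all arrays and at the authors' floor on 1. Wild-type controls had 3.03, 4.66 and 4.75, against a group mean of 4.75 in wild-type ventilated lungs, so that the wild-type change rests on the first control. Irf1 and Ngly1, the others of the 5, did not pass in either genotype. Group means of Irf1 were 10.49 in ventilated and 9.73 in control jnk1-/- lungs, and 10.12 and 10.03 in wild-type lungs. Those of Ngly1 were 7.82 and 8.10 in jnk1-/- and 7.74 and 8.06 in wild-type lungs, in the same order. Of 7 other genes of the proteasome, among them the maturation factor Pomp, Akirin2 alone passed, an adaptor known to bring proteasomes into the nucleus, with a log2 fold change of 1.91 ± 0.44 in jnk1-/- lungs (limma, adjusted p = 0.0170) and 1.02 ± 0.44 in wild-type lungs (adjusted p = 0.220).

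Of 16 measured genes that tag, extract or deliver substrates, 4 rose in jnk1-/- lungs and 3 rose in wild-type lungs, with 0 lower in either, against 7.11% and 2.13% of all probes called higher. Sqstm1, the ubiquitin-binding shuttle p62, had 13.25, 13.64, 13.74 and 13.76 in jnk1-/- ventilated lungs and 12.58, 12.21 and 12.21 in jnk1-/- controls, and 13.22, 13.84, 13.61 and 13.60 in wild-type ventilated lungs and 12.42, 12.04 and 12.14 in wild-type controls. All ventilated lungs lay above all controls. The log2 fold change was 1.26 ± 0.20 in jnk1-/- (limma, adjusted p = 0.00283) and 1.37 ± 0.20 in wild-type lungs (adjusted p = 0.00461). Zfand2a, an arsenite-inducible protein that binds the cap, rose by 1.54 ± 0.26 in jnk1-/- and 1.10 ± 0.26 in wild-type lungs (limma, adjusted p = 0.00353 and 0.0377), and Ube2d3, a ubiquitin-conjugating enzyme, by 0.76 ± 0.19 and 0.97 ± 0.19 in the same order (adjusted p = 0.0270 and 0.0200). Bag3, a chaperone partner that routes substrates to autophagy, rose in jnk1-/- lungs by 2.79 ± 0.63 (limma, adjusted p = 0.0150), with 10.32, 9.04, 7.08 and 10.29 in the ventilated lungs and 6.36, 5.99 and 6.83 in the controls. In wild-type lungs it had 6.87, 7.58, 6.94 and 7.34 with ventilation and 6.23, 6.18 and 6.34 in controls, also without overlap, and the change of 0.93 ± 0.63 did not pass (limma, adjusted p = 0.449). The difference between the genotypes in this change did not pass either, at 1.86 ± 0.88 (adjusted p = 0.397). Vcp, the unfoldase that extracts ubiquitinated proteins, was the one gene of the list to differ between genotypes, higher by 1.45 ± 0.25 in jnk1-/- than in wild-type ventilated lungs (limma, adjusted p = 0.0269) and by 1.35 ± 0.29 in jnk1-/- than in wild-type controls (adjusted p = 0.0296).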

How the data were processed

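Lung RNA of 14 mice was hybridized to single-colour CodeLink arrays, one array per sample. The authors deposited log2 intensities per probe for each array, on which the lowest value is -6.861, and a table of log2 values they had normalized by cyclic loess, floored at 3.122, where 24.5% of values lie. The per-array log2 values were normalized here by fitting a cyclic loess to each array pair (span 0.7, 3 iterations), with values at the lowest left out of the curves, and then floored at the 1st percentile (-0.66). Group means were fitted with limma 3.58.1 in R 4.3.3, with 5 contrasts, and the steps were tested on simulated data. The number of arrays limits the precision. Nothing in the labels says that the arrays of a group come from separate litters or days, so that p-values measure the spread between these arrays. Genes were named from the platform annotation: 15353 probes have 1 symbol, 91 several and 4177 none. Values of every array are given for called genes, the catalytic subunits and the activators, and list genes are named where called, up to 4 per list, along with Nfe2l1 and Nfe2l2. Psma6, Vcp, Irf1, Ngly1 and 7 genes of MHC class I loading were added after their values were seen. So were marker genes named for their direction or floor, and other genes named by their place in a range. The genes and lists were chosen with earlier results of these data known, so no test was run over a list. Promoter sequences are from RefSeq (GRCm38.p6), 1 entry per gene. The alternatives were other normalizations, the authors' normalized table, floors, a filter on dim probes, the Welch test of the methods, the arrays in the fit, array weights, a replicate block, each array left out, averaged control pairs and the mean of a gene's probes.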

Additional observations from a re-analysis of the deposited data

Results flagged for a closer look

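Among 86 sets of 4 ventilated arrays examined for a value far from the rest, 2 stood out, where chance marks about 1 in 20. Psmg3, a chaperone of alpha ring assembly, was at 7.59 in jnk1-/- ventilated 2, against 8.54 to 8.71 in the other 3 jnk1-/- ventilated lungs. Psmc1, a base ATPase, was at 9.25 in wild-type ventilated 3, against 9.80 to 9.87 in the other 3 wild-type ventilated lungs. Neither gene was called in any comparison.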

How the results depend on the processing

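No called gene changed direction under any alternative run. The fall of Psmb9 in jnk1-/- lungs passed in 26 of 27 alternatives, and those of Psmb8, Psmb10 and Psmd13 in 24, 25 and 25, while Psmd12 and Psmd1 passed in 15 and 6. In wild-type lungs Psmb9 passed in 20, Psmd12 in 11 and Psmd6 in 9. The 6 genes called in jnk1-/- lungs became 0 under the Welch test of the methods after adjustment (at p under 0.05 it gave 6 higher and 4 lower), 1 with only the groups compared in the fit, 3 with close control pairs averaged, and 4 to 5 with an array left out. The 3 called in wild-type lungs became 1 under quantile normalization, 7 in the authors' normalized values, 0 under the Welch test (5 higher and 2 lower unadjusted), 1 with only the groups compared, 6 with dim probes left out, 12 with array weights, 0 with control pairs averaged and 0 to 4 with an array left out. The cause was not tested. Without adjustment, the Welch test passed 18.3% of all probes in jnk1-/- and 17.4% in wild-type lungs, in either direction. The unadjusted counts of 6 and 4, and of 5 and 2, stand against these shares. Same-numbered arrays are not known to be paired, their deviations correlating at -0.07 to 0.10 over 19 pairs. With the replicate block, 4 genes were called in jnk1-/- and 0 in wild-type lungs. Between controls, median centring called 1 gene (Psmd4, lower in jnk1-/-) and array weights 3 (Psmb8, Psmd8 and Psme1, higher), against 0, and an array left out gave 0 there, between ventilated lungs and for the difference of effects. Under median centring the median of all 44 genes moved to -0.042 in wild-type lungs, -0.33 between controls, -0.20 between ventilated genotypes and 0.14 for the difference of effects, against 0.30, 0.14, -0.04 and -0.23. With an array left out it stayed at 0.05 to 0.18 in jnk1-/- and 0.23 to 0.42 in wild-type lungs, 0.10 to 0.25 between controls, -0.11 to 0.01 between ventilated genotypes and -0.35 to -0.11 for the difference. Psmd11 and Psme3ip1 were too close to background to be read.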

Other observations

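Control arrays of one group differed over the proteasome genes as a set. Of the 42 genes above the floor, wild-type control 1 was the highest of the 3 wild-type controls for 30, and wild-type control 2 the lowest for 24, while jnk1-/- control 3 was the lowest of its group for 28. The median deviation of these genes from the group mean was 0.20 on wild-type control 1 and -0.18 on wild-type control 2, against 0.04 and -0.02 over all probes. Psmb4, a beta ring subunit without an active site, ran against this on jnk1-/- control 3, at 11.91 against 10.80 and 10.61 on the other jnk1-/- controls.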
